A study of Homo sapiens with 3 samples.

Results

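The genes described here encode the machinery that fills, docks, primes, fuses and recycles synaptic vesicles. They are a named list of 34 genes, drawn up with earlier results of these data known. All 34 were found among the 32732 genes present in the feature tables of all 3 libraries. The study followed BJ cells, an established human fibroblast line, through a chemical induction towards neurons (FiNs) by single-cell RNA sequencing, with 1 library at day 0, 1 at day 3 and 1 at day 5. The day 0 library is labelled as BJ fibroblasts and the others as induced neuron cells, all of wild-type genotype and all labelled with the treatment reprogramming. Per the labels' protocols, cells on poly-D-lysine received an induction medium with 10 µM forskolin, an activator of adenylyl cyclase, then from day 2 a maturation medium with 10 µM forskolin, which was withdrawn on day 5. The sources used here do not say whether the day 0 cells had met forskolin.

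At a nerve terminal, neurotransmitter is packed into vesicles that are held near the presynaptic membrane by a protein scaffold, the active zone. Fusion is driven by SNARE proteins on the vesicle and the plasma membrane, is prepared by priming factors and complexins, and is triggered when synaptotagmins bind calcium. Vesicle membrane is then retrieved by clathrin, dynamin and their partners. In the textbook view, many genes of this machinery are kept low outside the nervous system by the repressor REST, and the cAMP response element, a DNA motif bound by CREB, lies in some of their promoters.

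Summed over kept cells, the libraries held 246546451, 18743865 and 51708522 UMIs (unique transcript molecules) in 16773, 11454 and 9219 cells at days 0, 3 and 5, with a median of 14039, 1324 and 4374 UMIs a cell. A level is given in CPM, the UMIs of a gene scaled by the total over the shared genes, which is not divided by gene length, so genes are compared with each other only through their ratios. With 1 library a group there is no replicate check and no statistical test, and every interval is an exact Poisson or binomial 95% interval that covers counting error only. Per the labels, days 0 and 3 were prepared as nuclei and day 5 as dissociated whole cells, so the day cannot be told apart from the preparation in the day 5 comparisons. The values of the day 0 library also stood apart from those of day 3, which carries the same nuclei label. Of 19 pan-neuronal marker genes, 12 had a UMI at day 3, with DCX, ELAVL4, NEFL, NEFM, RBFOX1, STMN2 and STMN4 at 0, which goes against the label of that library. The summed level of the 19 was 16.8 CPM at day 0, 61.1 at day 3 and 5114 at day 5, while 12 mesenchymal markers summed to 6161, 8471 and 384 CPM. The share of mitochondrial UMIs was 6.45%, 0.745% and 5.01%, that of ribosomal protein genes 16.1%, 3.90% and 2.09%, and that of the nuclear RNA MALAT1 3.14%, 21.6% and 7.35%, at days 0, 3 and 5. With 1 library a day, these differences cannot be told apart from the day in any comparison, day 3 against day 0 included. The file headers give software version 3.0.1 for the day 0 counts and Cell Ranger 4 for days 3 and 5, and the part of this in the day 0 comparisons was not tested. Between 27 and 63 cell barcodes were shared by any pair of libraries.

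RefSeq promoters (GRCh38.p14, 250 bases before to 50 after 1 start site a gene) matched 30 of the 34 members. SNAP25, SYN3, RIMS2 and CPLX1 had no entry. Searched letters, on both strands, were the cAMP response element TGACGTCA, its short form TGACG, which lies inside it, and the left and right parts TTCAGCACC and GGACAGC of the REST element. The stretches below are shown because they hold these letters in members with unlike levels over the days, chosen after their values were seen: SYT4 was seen only at day 5, RAB3A was lower at day 5 than at day 0, UNC13A was higher at day 5 than at both earlier days, and SYN1 stayed under 10 CPM in every library. Each stretch runs 5′ to 3′ on the minus strand, which is the strand of all of these genes. Capitals mark the motif letters or their reverse complement.
SYN1 (chrX:47619988-47620107, bases -250 to -131 from the start, with the left REST part and then the cAMP response element in capitals): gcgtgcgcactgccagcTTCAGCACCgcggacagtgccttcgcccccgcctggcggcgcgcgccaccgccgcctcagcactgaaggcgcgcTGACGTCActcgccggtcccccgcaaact
UNC13A (chr19:17688338-17688367, bases -13 to 17, across the start, with both REST parts in capitals as reverse complements): aggcGCTGTCCgcgcccccGGTGCTGAAcc
SYT4 (chr18:43277491-43277590, bases -100 to -1, with 2 short forms of the cAMP response element in capitals): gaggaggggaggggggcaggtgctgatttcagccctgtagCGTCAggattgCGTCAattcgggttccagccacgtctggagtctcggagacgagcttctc
RAB3A (chr19:18204043-18204192, bases -150 to -1, with 3 short forms in capitals): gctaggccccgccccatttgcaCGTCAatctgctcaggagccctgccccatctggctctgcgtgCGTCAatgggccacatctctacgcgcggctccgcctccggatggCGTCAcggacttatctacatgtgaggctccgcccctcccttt

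The full element TGACGTCA was in 1 of 30 member promoters (SYN1), against 1.98% of all 27305 promoters, and the short form TGACG in 11 of 30, against 25.01%. The short form was held by SYT4, SYT11, VAMP2, SYNJ1, NSG1, RAB3A, SYN1, SNAP91, SV2B, UNC13A and UNC13B, a set that includes members higher, lower and unchanged by the call rule below. The left REST part was in 2 of 30 (SYN1 and UNC13A), against 0.403%, and the right part in 4 of 30 (UNC13A, BSN, RAB3C and SYNJ1), against 6.11%. Only exact letters were counted. In SYN1 the left part is followed, after 2 bases, by letters that differ from the right part only in the last letter, so they were not matched or capitalized. These matches describe letters within the windows searched and say nothing of factor binding. The median GC content of the 30 promoters was 69%, against 58.3% for all promoters.

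A gene was called higher or lower between 2 libraries when its CPM ratio reached 2, its larger CPM reached 10 and its intervals were separate, and only genes with 10 CPM in either library could be called. Most of the machinery was higher at day 5 than at the earlier days. Between day 0 and day 3, 15 members could be called, of which 7 were called. At day 0, 10 members reached 10 CPM, at day 3 13 and at day 5 28. CPLX1, SV2B and SYN1 reached it in no library, so they could not be called between days. Against day 3, 24 of 30 members that could be called were higher at day 5, where 36.5% of all genes that could be called were higher, and 5 were lower, where 28.7% of all genes were lower. Against day 0, 25 of 30 were higher and 3 lower, beside 49.1% and 26.0% of all genes. The 3 became 6 with TMM or median of ratios scaling, where 5233 of 12165 and 5217 of 12143 genes were lower. With totals without mitochondrial and ribosomal protein genes they became 5, where 3679 of 12450 genes were lower. At day 3 against day 0, 4 of 15 were higher and 3 lower, beside 37.6% and 19.1% of all genes. With TMM or the median of ratios 5 members were lower at day 3, where 4863 of 10462 and 4759 of 10470 genes were lower. With no minimum CPM, 12 of the 34 were higher at day 3 and 5 lower, and the share over all genes was not computed. The same 24 members were higher at day 5 than at both other days, and VAMP2 and STX1A were lower than at both. A gene under 10 CPM at the earlier day could be called only through its day 5 level, so it could not be called lower at day 5. Of the 13 members at 10 CPM at day 3, SYT1, SYT11, SNAP25, UNC13B, DNM1, AMPH and SYNJ1 were higher at day 5. VAMP1, VAMP2, STX1A, SV2A and NSG1 were lower, and SYP was neither. The day 5 comparisons share the day 5 library, so they do not stand for separate evidence.

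The median log2 ratio over the members was 1.08 for day 3 over day 0 (all genes 1.36), 5.11 for day 5 over day 3 (all genes 0.08) and 5.68 for day 5 over day 0 (all genes 1.97), with libraries under 3 UMIs set at 3 UMIs, which is 0.0122, 0.160 and 0.0589 CPM at days 0, 3 and 5. Over the genes that could be called the medians were 0.65 (all genes 0.49), 5.87 (0.16) and 6.11 (0.93), so the members lay below all genes for day 3 over day 0 in the first reading and above them in the second. The first day 3 over day 0 median depended on the scaling. With TMM scaling it was -0.12 and with the median of ratios -0.080, as these factors moved the median over genes with 10 UMIs from 0.81 to -0.39 and -0.35. Of the called genes of that comparison, 66.3% were higher under CPM, 23.8% under TMM and 24.9% under the median of ratios, and the shares for day 5 over day 0 were 65.4%, 43.1% and 43.2%.

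**Figure D1:**
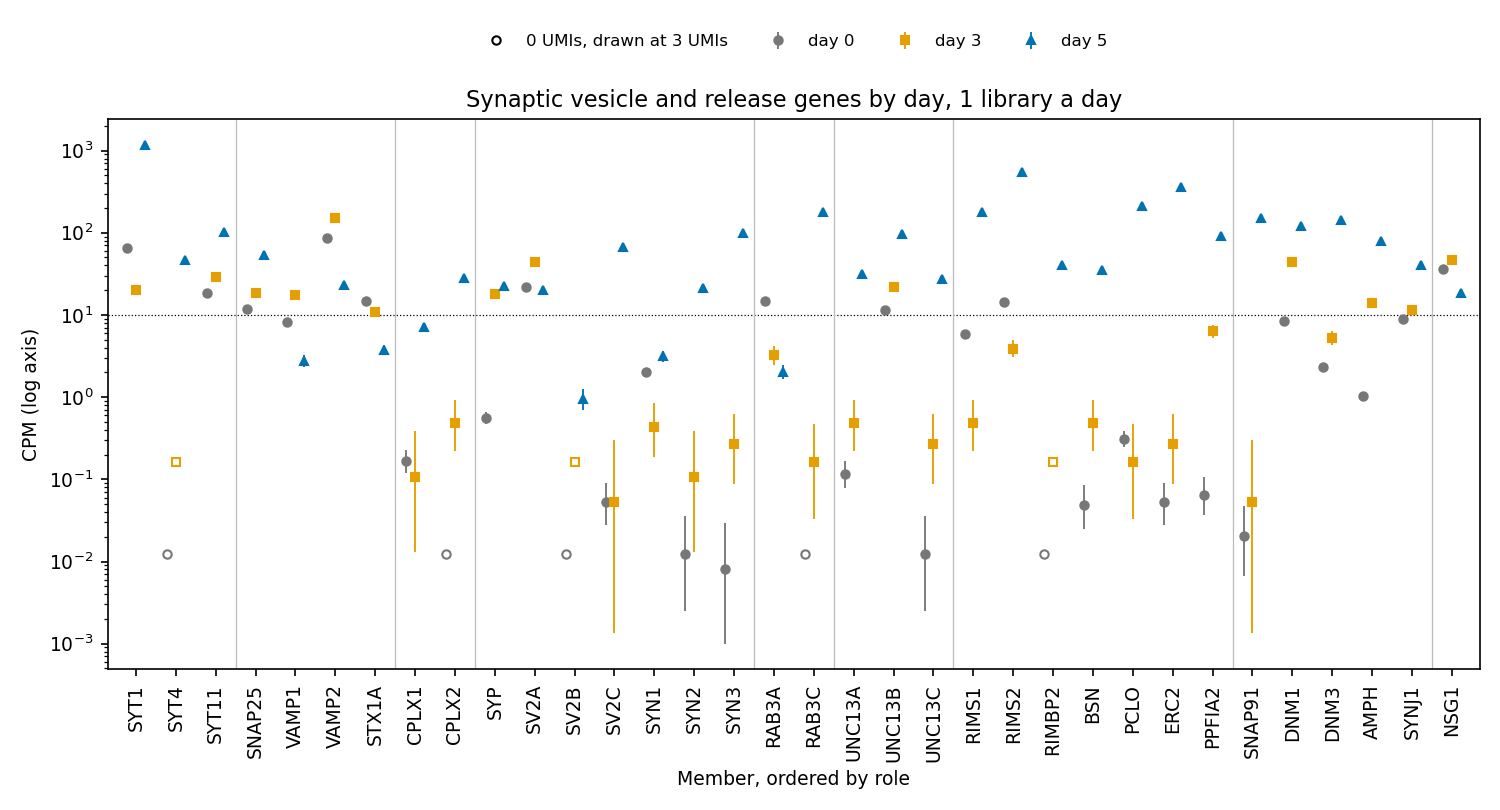
CPM on a log axis of the 34 members at day 0 (circles), day 3 (squares) and day 5 (triangles), 1 library a day, with exact Poisson 95% intervals as bars, open symbols for 0 UMIs drawn at the level of 3 UMIs, a dotted line at 10 CPM and grey lines between roles. At day 5, 28 members lie at or above the dotted line, against 10 at day 0 and 13 at day 3, and VAMP1, VAMP2, STX1A, SV2A, RAB3A and NSG1 have their lowest symbol at day 5.

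All 3 synaptotagmins were higher at day 5. SYT1, the fast calcium sensor of synchronous release, stood at 66.0 CPM in the fibroblast library, 20.04 at day 3 and 1182 at day 5. It was thus present in the fibroblasts, 3.29-fold lower at day 3 than at day 0, and 59.0-fold higher at day 5 than at day 3 (95% interval 53.3 to 65.5). SYT4, a synaptotagmin that binds calcium poorly and is known as an activity-regulated gene, had 0 UMIs at days 0 and 3 and 2393 UMIs, or 47.0 CPM, at day 5. Against a level of 3 UMIs a library, SYT4 was at least 293-fold higher at day 5 than at day 3 and at least 3861-fold higher than at day 0. SYT11, a synaptotagmin that does not bind calcium, stood at 18.6, 29.2 and 102 CPM and was 3.48-fold higher at day 5 than at day 3 (3.19 to 3.81).

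The SNARE genes did not move with the synaptotagmins. VAMP2, the main vesicle SNARE of the forebrain, stood at 87.3 CPM at day 0, 149 at day 3 and 23.2 at day 5, which made it 6.42-fold lower at day 5 than at day 3 and 3.76-fold lower than at day 0. VAMP1, its close relative, stood at 8.29, 17.5 and 2.73 CPM and was also 6.42-fold lower at day 5 than at day 3. The day 3 over day 0 call of VAMP1 (2.11-fold higher) was lost, with the sign turned, under TMM (log2 -0.12) and the median of ratios (log2 -0.080), and it was also lost with totals without mitochondrial and ribosomal protein genes (log2 0.78). STX1A, the plasma membrane partner, stood at 14.6, 10.7 and 3.75 CPM and was 2.86-fold lower at day 5 than at day 3, a call lost with the strict cell filter and with TMM or the median of ratios. SNAP25, which completes the neuronal SNARE complex, was the exception at 11.8, 18.4 and 54.0 CPM, 2.94-fold higher at day 5 than at day 3 (2.62 to 3.29). The widely expressed paralogs VAMP3, at 99.7, 24.1 and 10.5 CPM, and STX4, at 46.2, 33.1 and 3.69 CPM, were lower at day 5 too, while SNAP23 (26.9, 46.2 and 38.4 CPM) was called in no comparison. SNAP25-AS1, annotated on the strand opposite to SNAP25, stood at 0.321, 1.23 and 97.3 CPM, and the sources used here do not say whether counting used strand, without which reads of the pair cannot be told apart.

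The complexins, small clamps of the SNARE complex, were nearly silent before day 5. CPLX2 had 0 UMIs at day 0, 9 UMIs (0.481 CPM) at day 3 and 27.8 CPM at day 5, 57.9-fold above day 3 (30.4 to 127). CPLX1 stood at 0.166, 0.107 and 7.13 CPM, under the level at which a gene could be called.

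Among the vesicle membrane proteins, SYP alone was called higher at day 3 than at day 0. SYP encodes synaptophysin, an abundant vesicle membrane protein. Its level was 0.560 CPM at day 0, 17.9 at day 3 and 22.3 at day 5, 32.0-fold higher at day 3 than at day 0 (26.2 to 39.3) and within 2-fold between day 3 and day 5. The gain was spread over the day 3 library: across its 4 clusters SYP stood between 9.44 and 26.9 CPM, against 0 to 0.719 CPM across the 7 clusters of day 0. Its paralog SYPL1 stood at 75.4, 62.0 and 37.4 CPM. The SV2 glycoproteins, transporter-like vesicle proteins, did not share a pattern. SV2A stood at 21.9, 43.6 and 20.1 CPM and was 2.17-fold lower at day 5 than at day 3, a call lost when every day 5 barcode of 1000 UMIs was kept. SV2C had 13 UMIs at day 0 and 1 at day 3 and stood at 67.8 CPM at day 5, and SV2B had 0 UMIs at days 0 and 3 and 48 UMIs at day 5 (0.943 CPM).

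Synapsins tether vesicles to each other and to actin. SYN3 rose from 2 UMIs at day 0 and 5 UMIs at day 3 to 5095 UMIs (100.1 CPM) at day 5, and SYN2 from 3 and 2 UMIs to 1088 UMIs (21.4 CPM). SYN1, the synapsin most used as a neuronal marker, stood at 2.02, 0.428 and 3.12 CPM. SYN1 and SYN3 each contain, on the opposite strand, a gene for a metalloproteinase inhibitor. TIMP1 within SYN1 stood at 986, 1108 and 64.3 CPM and TIMP3 within SYN3 at 217, 464 and 63.4 CPM, so the 2 UMIs of SYN3 at day 0 were counted beside an abundant TIMP3.

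The Rab3 GTPases mark vesicles for docking, and the pair measured here went in opposite directions. RAB3A stood at 14.8 CPM at day 0, 3.26 at day 3 and 2.02 at day 5, 4.54-fold lower at day 3 and 7.32-fold lower at day 5 than at day 0. With cells weighted equally (the mean of per-cell CPM), RAB3A lost both calls. RAB3C had 0 UMIs at day 0 and 3 at day 3 and stood at 181 CPM at day 5, at least 14840-fold above day 0 against a level of 3 UMIs a library. RAB3B, a relative outside the members, stood at 590, 27.4 and 12.7 CPM, so the fibroblast library held a Rab3 gene at a high level that fell 21.6-fold by day 3.

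Every priming factor and every active zone scaffold was higher at day 5 than at both earlier days. The Munc13 proteins open syntaxin so that SNAREs can pair. UNC13A stood at 0.118, 0.481 and 31.7 CPM, UNC13B at 11.3, 22.1 and 97.9 and UNC13C at 0.0122, 0.267 and 27.4, which was 66.0-fold, 4.42-fold and 103-fold above day 3 at day 5.

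The 7 scaffold genes build the active zone. RIMS1 and RIMS2 encode RIM proteins, which bind Rab3 and calcium channels. RIMS1 stood at 5.93, 0.481 and 179 CPM and RIMS2 at 14.4, 3.90 and 553 CPM, so both were in the fibroblast library. RIMS2 was called 3.69-fold lower at day 3, a call lost after thinning to 1000 UMIs and under the mean of per-cell CPM. RIMBP2, which links RIM to calcium channels, had 0 UMIs at days 0 and 3 and stood at 40.0 CPM at day 5, at least 249.5-fold above day 3. The large scaffolds BSN (bassoon) and PCLO (piccolo) stood at 0.0487, 0.481 and 35.1 CPM and at 0.312, 0.160 and 209 CPM, and the PCLO ratio to the 3 UMIs of day 3 was 1305 (446 to 6328). ERC2 stood at 0.0527, 0.267 and 358 CPM, 1340-fold above day 3 (574 to 4127), while its widely expressed paralog ERC1 stood at 33.9, 50.5 and 390 CPM, 7.73-fold above day 3. PPFIA2, a liprin scaffold, stood at 0.0649, 6.36 and 90.3 CPM, with 16 and 119 UMIs at days 0 and 3, between which it could not be called. Its paralog PPFIA1 stood at 49.9, 54.4 and 107 CPM.

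The endocytosis proteins were all higher at day 5 than at both earlier days, and 2 of the 5 were called higher at day 3. DNM1, the neuronal dynamin that pinches vesicles from the membrane, stood at 8.44, 43.9 and 120 CPM, 5.197-fold above day 0 at day 3 (4.79 to 5.64) and 2.73-fold above day 3 at day 5. AMPH, which recruits dynamin, stood at 1.02, 14.0 and 79.9 CPM, 13.7-fold above day 0 at day 3 (11.5 to 16.4). SYP, DNM1 and AMPH were called higher at day 3 in each alternative of scaling, depth per cell and cell filter, unlike VAMP1. With a minimum of 20 CPM, SYP and AMPH lay under the limit at days 0 and 3 and could not be called. DNM3 stood at 2.33, 5.29 and 142 CPM, with the opposite-strand gene DNM3OS at 7.51, 201 and 2.00 CPM. SNAP91, the neuronal clathrin adaptor AP180, had 5 UMIs at day 0 and 1 at day 3 and stood at 149 CPM at day 5, and SYNJ1, a phosphatase that uncoats vesicles, stood at 8.83, 11.3 and 41.0 CPM. The paralogs DNM2 (42.5, 35.9 and 74.6 CPM) and PICALM (89.0, 98.7 and 216.5 CPM) were called higher at day 5 than at day 3, whereas SYNJ2 (85.0, 56.7 and 20.6 CPM) and BIN1 (21.1, 24.3 and 7.74 CPM) were lower. NSG1, a neuronal endosomal protein, stood at 36.4, 46.8 and 18.4 CPM and was 2.54-fold lower at day 5 than at day 3, a call lost with the strict cell filter.

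The same machinery was then read in 57 further neuronal genes of release and 57 widely expressed genes of membrane traffic. Both lists were chosen with earlier results of these data known. For day 5 over day 3, 20 of 33 neuronal relatives that could be called were higher and 7 lower. Of the widely expressed relatives 9 of 53 were higher and 15 lower, and of all genes 36.5% were higher and 28.7% lower. For day 5 over day 0 the counts were 26 higher and 2 lower of 30, and 13 higher and 25 lower of 53. Of all genes 49.1% were higher and 26.0% lower there. The neuronal relatives with the largest levels among those higher at day 5 than at day 3 were CADPS, a priming factor of dense-core vesicles, at 439 against 4.86 CPM, STXBP5L at 141 against 0.321, and APBA2 at 127 against 60.7, and the same genes led against day 0. Among those lower were CACNA1A, a presynaptic calcium channel, at 48.2 against 112 CPM, and PPFIA4 at 1.16 against 37.2. Against day 0, RAB3B and SYNGR1 (8.95 against 79.0 CPM) were lower.

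At day 3 against day 0, 10 of 16 neuronal relatives were higher and 2 lower, those higher including CACNA1A (112 against 13.1 CPM) and APBA2 (60.7 against 23.2), with RAB3B and SYNGR1 lower. Of the widely expressed relatives 6 of 53 were higher and 10 lower. Of all genes 37.6% were higher and 19.1% lower in that comparison. EPN2, STXBP5 and RAB27A led those higher, at 144, 95.9 and 68.4 CPM at day 3, and the clathrin and adaptor subunits AP2M1 (456 to 165 CPM), CLTA (370 to 145) and CLTB (343 to 13.8) those lower. At day 5 the adaptor AP2M1 stood at 23.7 CPM, lower than at both earlier days. The widely expressed genes that led those higher at day 5 were ITSN1 at 513 CPM against 35.3 at day 3, ERC1, and CASK at 368 against 48.2. STX2 (29.1 against 69.3 CPM) was lower than at day 3, and CLTA (133 CPM) and CLTC (123 against 361 CPM at day 0) were lower than at day 0.

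Ratios to day 5 differed between members with short and long introns. Total intron length, the annotated gene span less all exons (GENCODE 29), was under 100000 bases in 16 members and at least that in 18. Just below the limit lay SNAP25 (85232 bases) and SYNJ1 (91220), and just above it BSN (100832) and SNAP91 (150161). Against day 3, all 17 long-intron members that could be called were higher at day 5, beside 74.0% of all long-intron genes, of which 7.12% were lower. Of these members, only SYT1, UNC13B and AMPH reached 10 CPM at day 3. The rest could be called only through their day 5 level, so they could not have been called lower. Of 13 short-intron members 7 were higher and 5 lower, beside 25.2% and 35.2% of all short-intron genes. The median log2 ratio was 7.10 for long-intron and 1.502 for short-intron members, against 2.30 and -0.25 for all genes of those classes.

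All 5 members lower at day 5 than at day 3 (VAMP1, VAMP2, STX1A, SV2A and NSG1) had short introns, from 1130 bases in VAMP2 to 66564 in NSG1. The short-intron members that were higher nonetheless were SYT4 (5336 bases), SYT11 (20451), DNM1 (52819), UNC13A (75850), CPLX2 (80612), SNAP25 and SYNJ1. Moving the limit to 50000 bases turned the short-intron median to -0.19, since DNM1, UNC13A, CPLX2, SNAP25, SYNJ1 and NSG1 then counted as long. Against day 0, 17 of 17 long-intron members were higher (84.0% of long-intron genes, with 5.49% lower), and 8 of 13 short-intron members were higher and 3 lower (38.2% and 32.4% of short-intron genes). Of the long-intron members, only SYT1, UNC13B and RIMS2 reached 10 CPM at day 0, so the rest could not have been called lower. For day 3 over day 0 only 4 long-intron members could be called, 1 higher (AMPH) and 2 lower (SYT1 and RIMS2), beside 47.5% and 11.9% of long-intron genes. Of 11 short-intron members 3 were higher and 1 lower, beside 35.5% and 20.7% of short-intron genes.

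Across genes, which are not independent replicates and share the same libraries, intron length and the day 5 over day 3 log2 ratio had a Spearman rho of 0.58 over 12593 other genes and 0.68 over the 30 members. The corresponding values for day 3 over day 0 were 0.13 over 10416 genes and -0.26 over 15 members. The sources used here do not say whether introns were counted, and days 0 and 3 are labelled as nuclei and day 5 as whole cells. The part of library preparation in this trend was not tested.

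**Figure D2:**
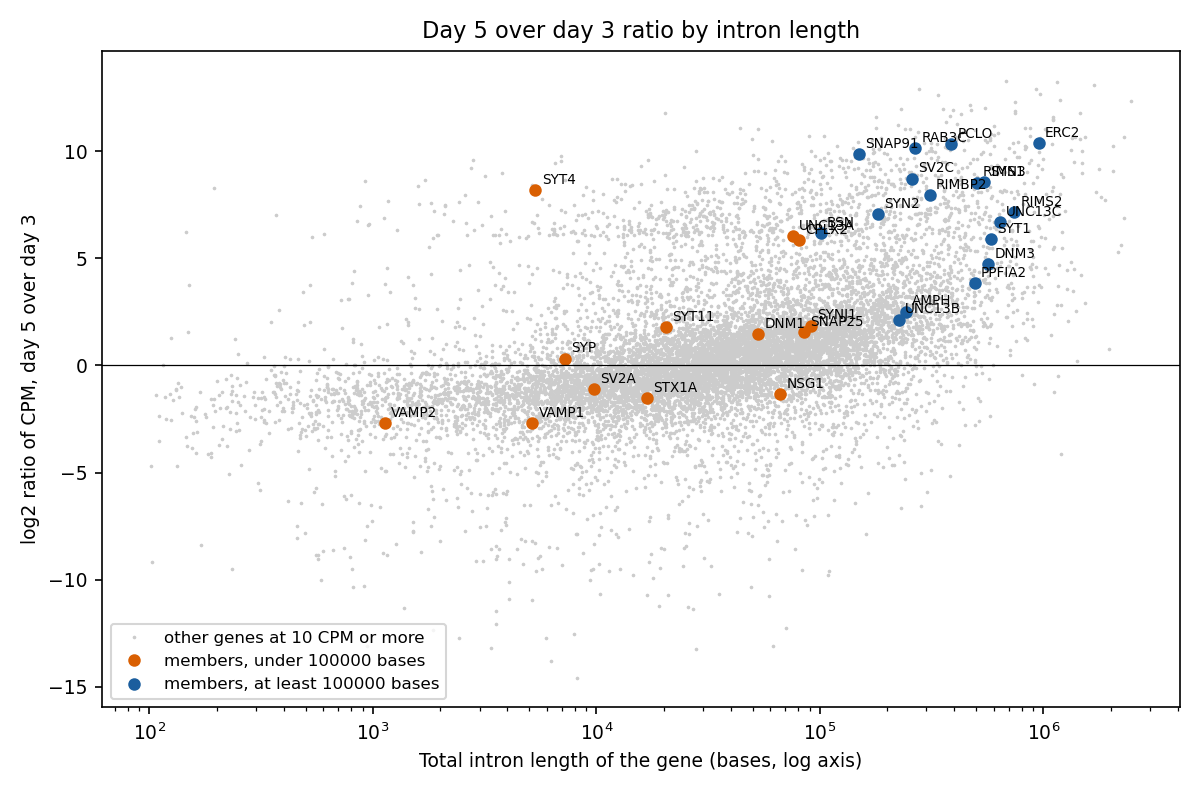
Log2 ratio of CPM, day 5 over day 3, against total intron length in bases on a log axis, for the 30 members that could be called (orange under 100000 bases, blue at least that) and for all other such genes with at least 100 bases of intron (grey). The grey cloud rises with intron length, the 17 blue points all lie above 0, and the orange points split with VAMP1, VAMP2, STX1A, SV2A and NSG1 below 0 and SYT4 above most genes of similar length.

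Within the day 5 library the members could be compared between cells of 1 preparation. Clusters were found without the members and their relatives, so that their levels did not shape them. Of 11 clusters, 4 were called neuron-like because at least 5 of the 19 pan-neuronal markers stood 2-fold above the other cells (8, 14, 10 and 10 markers), a limit set after the clusters were seen. They were clusters 5 (led by CNTN5 and TAFA1), 7 (led by VWDE and SLC17A6, a glutamate transporter), 8 (led by SLC6A5, a glycine transporter, and PAX8) and 10 (led by RELN), with 2361 cells or 25.6%. Cluster 4 held 5 such markers but 6 of 11 neuronal precursor markers and was led by the proneural gene NEUROD4. Its 479 cells (5.196%) were kept apart. The other 6 clusters, 6379 cells or 69.2%, held none. Of the listed markers of neuron subtypes, SLC17A6 was among the leading genes of cluster 7, and SLC6A5, GAD2 and PAX2 among those of cluster 8. The leading genes of clusters 5 and 10 held none, though 7 of 8 GABA and glycine markers stood 2-fold up in cluster 10. In cluster 7, 2 of 8 glutamatergic and 3 of 8 GABA and glycine markers stood 2-fold up, so it was not set apart as glutamatergic by these lists. The counts were 2 and 1 in cluster 5, 0 and 5 in cluster 8, and 0 glutamatergic in cluster 10. Of 6 neuroendocrine markers, 3, 4, 1 and 1 stood 2-fold up in clusters 5, 7, 8 and 10. No listed marker of a non-neuronal class was among the leading genes. In cluster 7, however, 2 of 12 mesenchymal markers stood 2-fold above the other cells, against 0 in clusters 5, 8 and 10. The median cell held 4979 UMIs in the neuron-like clusters, 3634 in the NEUROD4 cluster and 4261 in the others.

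In the neuron-like clusters 20 of the 29 members that could be called were higher than in the other clusters and 0 were lower. Of all 11148 genes that could be called, 7.82% were higher and 7.04% lower, a rule of size without a test since both come from 1 library. By intron class, 13 of 17 long-intron members were higher (16.1% of such genes, with 10.5% lower) and 7 of 12 short-intron members (4.89%, with 5.8% lower), and the median log2 ratio was 1.35 over all members, 1.83 over long-intron and 1.15 over short-intron ones. The intron trend here had a Spearman rho of 0.24 over 11119 other genes and 0.32 over 29 members. Both values lay below those of day 5 over day 3 and above those of day 3 over day 0. Of the neuronal relatives 14 of 34 were higher and 3 lower, and of the widely expressed ones 0 of 50 were higher and 1 lower.

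Among the members that could be called, the neuron-like clusters stood furthest above the others in RIMBP2, at 103 against 8.70 CPM, an 11.9-fold ratio (10.4 to 13.5). SYN3 (250.1 against 25.2 CPM), PPFIA2 (222 against 24.4), SV2C (154 against 17.3) and SYN2 (50.7 against 6.02) followed at 9.94-fold, 9.12-fold, 8.88-fold and 8.42-fold. SV2B, too low to be called, had 41 UMIs against 6, a 13.3-fold ratio (5.64 to 38.5). RIMBP2, SYN3, PPFIA2, SV2C and SYN2 are scaffold, synapsin and vesicle genes with long introns. Short-intron members stood higher as well: CPLX1 (15.7 against 2.81 CPM, 5.60-fold), UNC13A (64.5 against 14.8, 4.36-fold), SYP (44.4 against 10.2, 4.33-fold), SNAP25 (105 against 28.4, 3.69-fold), NSG1 (31.5 against 11.8, 2.68-fold) and CPLX2 (39.1 against 14.7, 2.66-fold). SYNJ1, RIMS2 and AMPH passed the limit narrowly at 2.02-fold, 2.06-fold and 2.08-fold.

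Some members were hardly set apart between the pooled neuron-like and the pooled other clusters. SYT1 stood at 1458 CPM in the neuron-like and 996 in the other clusters, PCLO at 258 and 189, and DNM1 at 130 and 118. SYT4 stood at 43.9 and 48.2 CPM, and VAMP2 at 15.7 and 27.6 CPM, 1.76-fold lower in the neuron-like clusters. All 5 differed by less than the 2-fold limit between these pools. Single clusters lay further apart, with SYT1 between 369 CPM in cluster 9 and 2121 in cluster 7. PCLO lay between 63.5 CPM in cluster 9 and 420 in cluster 5. In the NEUROD4 cluster SYT1 stood at 1927 CPM. VAMP2 was called lower with the profile of the day 5 low barcodes subtracted, a setting chosen after seeing the data, and leaving out any 1 cluster gave between 17 and 22 members higher and 0 lower.

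**Figure D3:**
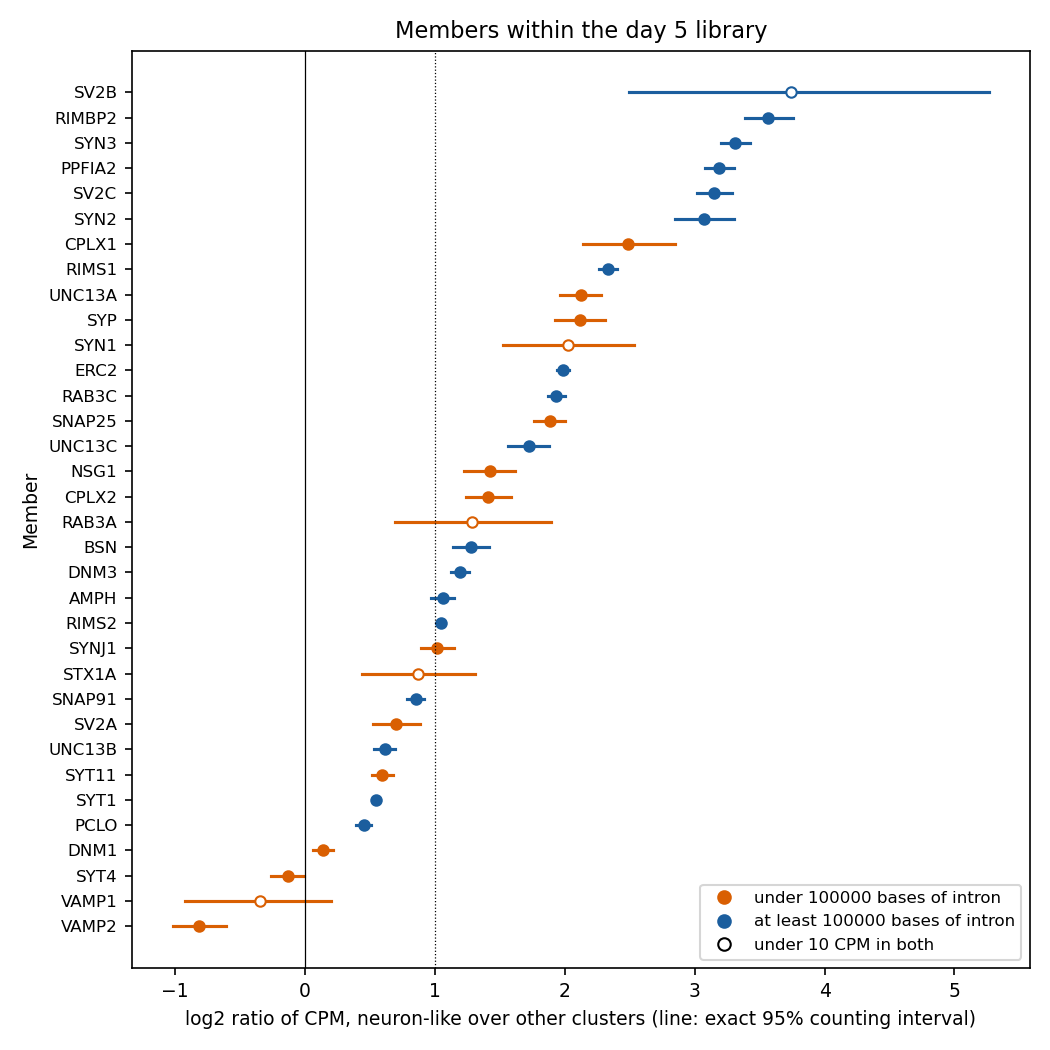
Log2 ratio of CPM between neuron-like and other day 5 clusters for the 34 members (points, orange under 100000 bases of intron, blue at least that, open under 10 CPM in both), with exact 95% counting intervals as lines and a dotted line at a 2-fold ratio. RIMBP2, SYN3, PPFIA2, SV2C, SYN2 and the open point of SV2B lie above 3, and VAMP2, VAMP1 and SYT4 lie below 0.

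Across the single clusters, 11 members had their highest level in cluster 5, 10 in cluster 10 and 7 in cluster 7, and 14 had their lowest in cluster 9. Cluster 9 was a group of 126 cells with a median of 10.0% mitochondrial UMIs. Some of its lows rest on few UMIs, such as 2 each for UNC13A, UNC13C and RIMBP2. The share of all genes with their highest or lowest level in each cluster was not computed, so these counts are not read as particular to the members. The neuron-like clusters also differed among themselves. UNC13C stood at 140 CPM in cluster 5 and SYN2 at 107, whereas RAB3C (591 CPM), RIMS1 (588), SV2C (304) and ERC2 (1295) peaked in cluster 10, and SYT1 (2121), SYN3 (408), PPFIA2 (346) and RIMBP2 (145) in cluster 7. SV2B was almost confined to cluster 5, which held 37 of its 48 UMIs.

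Other members peaked outside the neuron-like clusters. CPLX2 was highest in the NEUROD4 cluster, at 152 CPM against 39.1 in the neuron-like clusters. DNM3 was highest in cluster 2, which also held mesenchymal genes such as COL14A1 and COL1A1, at 370 CPM. RIMS2 was highest in cluster 3, 94 cells led by MYBPC1 and WNT3A, at 1181 CPM, and VAMP2 in cluster 6, the largest cluster, at 31.0 CPM.

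**Figure D4:**
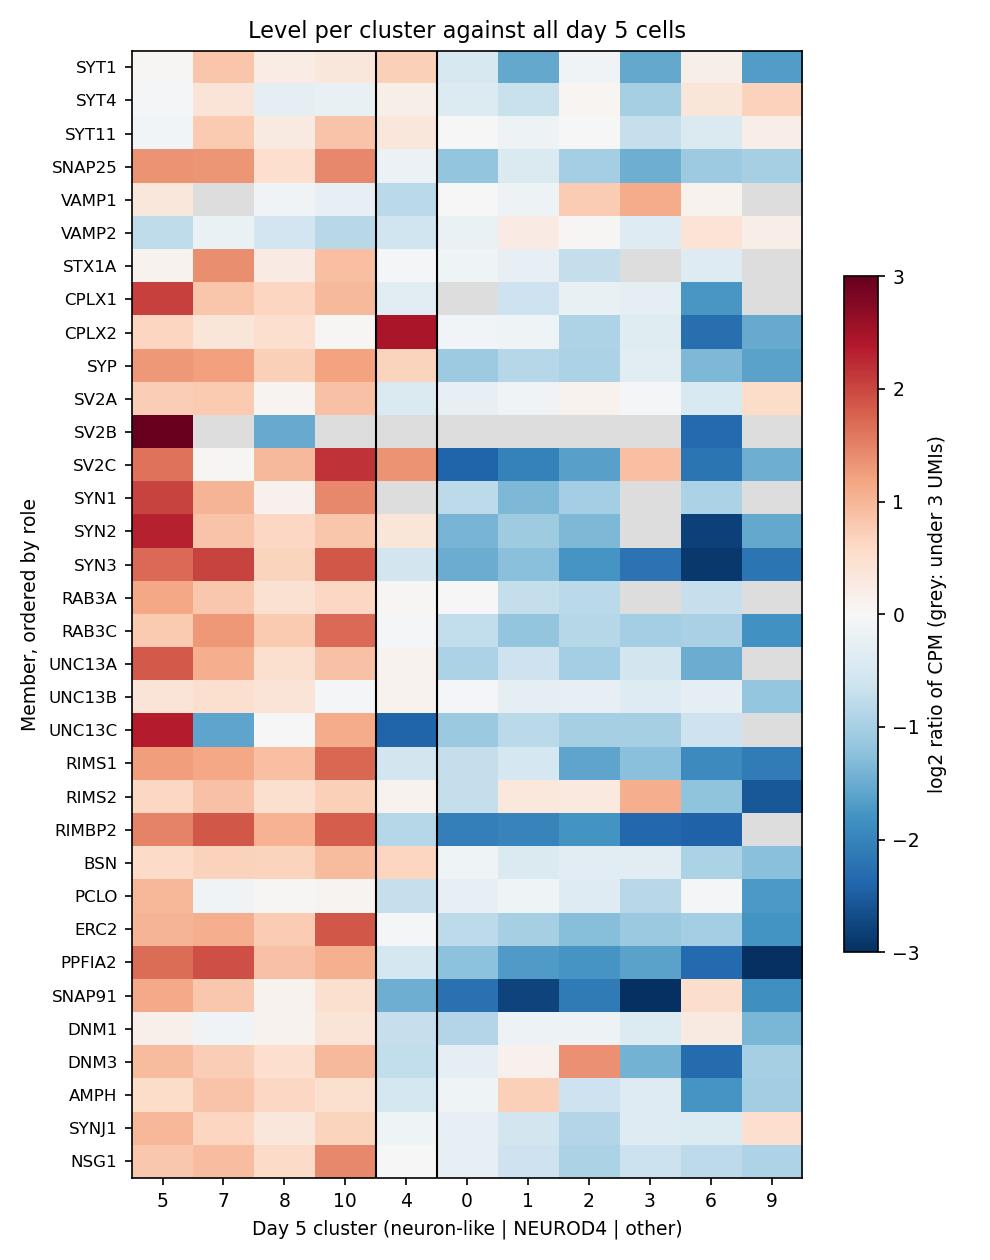
Log2 ratio of the CPM of each member in each day 5 cluster to its CPM over all day 5 cells (red above, blue below, grey under 3 UMIs), with the 4 neuron-like clusters left of the first line, the NEUROD4 cluster between the lines and the 6 other clusters on the right. Most rows are red on the left, with exceptions for CPLX2 in cluster 4, DNM3 in cluster 2, RIMS2 in cluster 3 and the pale rows of SYT4, VAMP2 and DNM1.

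The spread over single day 5 cells was read after each cell was thinned to 2000 UMIs. A cell then held a UMI of 4 members at the median, with 1 at the 5th and 9 at the 95th percentile, and 1.30% of cells held none. The median was 7 (3 to 12) in neuron-like clusters, 5 (2 to 8) in the NEUROD4 cluster and 3 (1 to 6) in the others. Long-intron members made up most of it, with a median of 6 of 18 in neuron-like cells beside 1 of 16 short-intron members. To compare days, cells were thinned to 1000 UMIs. No member was seen in 78.1% of 14385 day 0 cells, 62.9% of 8455 day 3 cells and 7.67% of 9219 day 5 cells, with 2388 day 0 and 2999 day 3 cells left out as shallower. Clusters 0 and 1 of day 0, with few UMIs a cell and low mesenchymal markers, held 19.9% and 23.8% of its cells before thinning. Their part in the day 0 share was not tested.

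**Figure D5:**
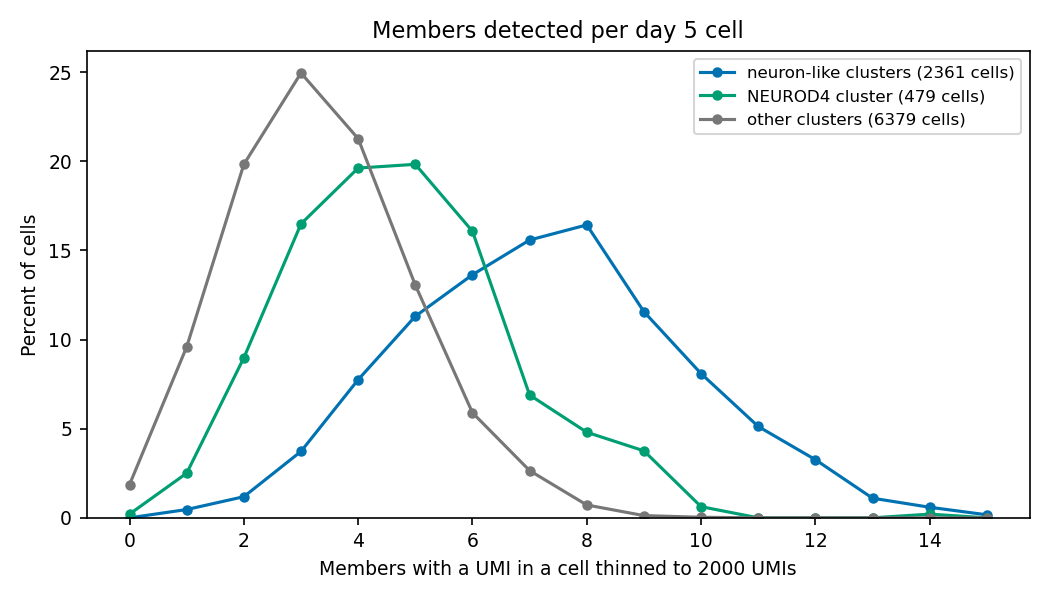
Percent of day 5 cells (y axis) by the number of the 34 members with a UMI after thinning to 2000 UMIs (x axis), for 2361 cells of neuron-like clusters, 479 of the NEUROD4 cluster and 6379 of the other clusters. The medians are 7, 5 and 3 members.

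At 2000 UMIs a cell, SYT1 was seen in 70.4% of day 5 cells, RIMS2 in 50.4%, ERC2 in 38.4%, PCLO in 27.7%, RAB3C in 24.1% and RIMS1 in 22.1%, and no other member reached 20%. Without thinning these shares were 83.9%, 66.9%, 59.1%, 49.0%, 41.2% and 39.0%. SYN1, SV2B, VAMP1, STX1A and RAB3A were each seen in under 1%. ERC2 was seen in 69.5% of neuron-like and 26.9% of other cells, SYN3 in 31.5% and 4.59%, RIMBP2 in 19.3% and 1.61%, and PPFIA2 in 30.2% and 4.64%. SYT4, in contrast, was seen in 9.11% of neuron-like and 9.37% of other cells, and VAMP2 in 2.80% and 5.44%.

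The cell-to-cell spread of each member was set beside that of genes at a similar level by the Fano factor, the variance of thinned counts over their mean. SYN2, SYN3, SV2C, UNC13C and PPFIA2 exceeded the 95th percentile of such genes. For SYN3 the factor was 1.99 against a median of 1.07 for genes at its level, for SYT1 3.38 against 2.30 and for SYT4 1.06 against 1.05. The 5 members above that percentile were all among the 20 of 29 called higher in the neuron-like clusters. Both readings use the same cells, so they are not separate evidence. The share of all genes above that percentile that were higher there was not computed.

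Day 5 was deposited with all its barcodes, which allowed the members to be read in 50613 barcodes of 500 to 1000 UMIs, below the level for a cell. All 18 long-intron members were lower there than in cells, for example RIMS2 at 143 CPM against 553, SYN3 at 25.3 against 100.1 and SNAP91 at 43.4 against 149. SYT4, SYT11, SYN1, SV2A, VAMP2, RAB3A and NSG1, all with short introns, were higher there than in cells, with SYT4 at 149 against 47.0 CPM and VAMP2 at 34.1 against 23.2. Neither count was set beside all genes of its intron class, so the split is not read as particular to the members. What share of the SYT4 UMIs in cells was free RNA was not tested. Subtraction of the profile of the low barcodes, at 16.4% of the cells' UMIs, kept all 29 calls of members against day 3 and all 28 against day 0.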

How the data were processed

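The values are UMI counts per gene and barcode, deposited by the authors without normalization. The submitters' processing notes name Cell Ranger 4.0.0 and the build hg38 (GRCh38), but the day 0 file header gives version 3.0.1. The deposited gene tables held 33538 genes at days 0 and 3 and 36601 at day 5. The sources used here do not say whether introns or strand entered the counting. The labels name nuclei and an accessibility kit for days 0 and 3, and dissociated cells loaded with a gene expression kit for day 5, with the accessibility kit again for its library step. Each file holds gene counts. The deposited matrices held 17504, 11488 and 2037119 barcodes, so day 5 was unfiltered. Cells needed at least 500 UMIs (2155 at day 5), 300 genes and no more than 20% mitochondrial UMIs. No doublet caller was run, so doublets were kept.

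UMIs were summed over cells per library, and CPM was taken over 32732 genes matched by Ensembl ID. No p-value was computed, as every group has a single library and cells are no replicates. In ratios, libraries under 3 UMIs were set at 3, so a ratio to 0 is a lower bound. A strict filter asked for 2000 UMIs, 1000 genes and at most 10% mitochondrial UMIs. Each library was clustered in scanpy 1.11.5 with igraph 0.11.9 (2000 variable genes, 30 components, 15 neighbours, Leiden resolution 0.5), without the members and relatives. TMM factors came from edgeR 4.0.16 in R 4.3.3, used for scaling only. Intron lengths came from GENCODE 29 and promoters from RefSeq (GRCh38.p14). The calls and the thinning were tested on simulated data. The members, gene lists and rules were chosen with earlier results of these data known. All 34 members are named, and of each list of relatives the up to 3 called higher and 3 called lower with the largest CPM in a comparison, plus 10 widely expressed paralogs. Some relatives picked by this rule are not reported here.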

Additional observations from a re-analysis of the deposited data

Results flagged for a closer look

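The day 5 barcodes of 500 to 1000 UMIs, which enter none of the comparisons between days, held signal of 4 members that stood at least 2-fold above the cells with separate intervals. SYT4 stood at 149 CPM there against 47.0 in cells (3.16-fold), NSG1 at 57.8 against 18.4 (3.13-fold), SV2A at 49.0 against 20.1 (2.43-fold) and SYT11 at 221 against 102 (2.17-fold). All 4 have short introns, and the share of all short-intron genes that stood so was not computed. With 1 library a group, no sample could be compared with others of its own group.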

How the results depend on the processing

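With 1 library a group, no spread between libraries could be measured, and depth limited members under 10 CPM. No paired analysis was possible because each group is 1 library and the groups share no replicate other than number 1. Of 220 alternative values of summary results, 174 stayed within their range, 41 moved and 5 turned sign, and of 640 alternatives of 64 called member ratios 2 turned sign (VAMP1, day 3 over day 0, log2 -0.12 with TMM and -0.080 with the median of ratios). Causes of these shifts were not tested. Settings that alter only the day 5 cells cannot change a day 3 over day 0 value, yet these values are counted among those that stayed or kept their sign. For day 3 over day 0 the median log2 ratio became -0.12 with TMM and -0.080 with the median of ratios, and that of short-intron members -0.545 and -0.51, 0.35 without mitochondrial and ribosomal genes in the totals, 1.05 thinned to 1000 UMIs, 1.06 with the mean of per-cell CPM and 0.88 with an intron limit of 200000. Members higher at day 3 numbered 8 thinned, 9 with the mean per cell, 1 with a minimum of 20 CPM and 12 with no minimum. Members lower numbered 5 with TMM, 5 with the median of ratios, 1 with the mean per cell, 1 at 20 CPM and 5 with no minimum. Of all genes, 4623 of 10307 were higher thinned, and 4824 of 10273 were higher and 1595 lower with the mean per cell. No share over all genes was computed for the strict filter or another minimum CPM, and those for the scalings are given above. For day 5 over day 3, members lower numbered 3 with the strict filter and 3 at 20 CPM, and the short-intron median was -0.19 at an intron limit of 50000 and 1.83 at 200000. For day 5 over day 0, members lower numbered 6 with TMM, 6 with the median of ratios, 5 without mitochondrial and ribosomal genes and 1 at 20 CPM, and the median over members was 4.54 and 4.55 with TMM and the median of ratios. There the short-intron median was 1.07 and 1.08 with these scalings, 1.94 without mitochondrial and ribosomal genes, 2.13 with every day 5 barcode of 1000 UMIs, 2.38 thinned, 2.57 with the mean per cell, 2.12 without the 10% of cells with the most UMIs, 0.25 at 50000 and 3.14 at 200000. The long-intron median was 8.77 and 8.78 with the scalings, 7.12 thinned and 8.73 at 50000. Thinned to 1000 UMIs, the median day 5 cell held 2 members, also with every barcode of 1000 UMIs, and the median share of cells per member was 4.09% and 3.60%, against 7.90% at 2000 UMIs and 7.32% without the 10% of cells with the most UMIs. Between neuron-like and other clusters, members lower numbered 1 with the low-barcode profile subtracted, a setting chosen after seeing the data, as were all alternatives of that comparison.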

Other observations

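SYT1 was not evenly spread over the fibroblast library. Its clusters 0 and 1 held 19.9% and 23.8% of its cells, and their median cells held 2278 and 943 UMIs. There SYT1 stood at 5.12 and 10.97 CPM, and in the other 5 clusters of day 0 between 62.2 and 77.1 CPM. The mesenchymal markers were also low in clusters 0 and 1, summing to 619 and 1290 CPM. In the other clusters they summed to between 5211 CPM in cluster 3 and 10513 in cluster 6. The median cell of cluster 6 held 2645.5 UMIs. VAMP2 stood at 54.7 and 52.8 CPM in clusters 0 and 1 and between 70.6 and 109.9 CPM in the others. At day 3, VAMP2 stood at 236 CPM in cluster 1, led by RORB, and between 117 and 140 CPM in the other 3 clusters.

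Of the 34 members, 20 overlap another gene of the feature tables on the opposite strand, 10 of them a protein-coding gene. Unnamed opposite-strand transcripts within SYT1 stood at 0.576, 1.71 and 164 CPM (AC027288.3) and at 0, 0.0534 and 88.3 CPM (AC090709.1) at days 0, 3 and 5. Within RAB3C, AC016642.1 was at 0 at days 0 and 3 and at 41.2 CPM at day 5. ACSS3, opposite to PPFIA2, stood at 1.89, 10.4 and 48.4 CPM, beside 0.0649, 6.36 and 90.3 CPM for PPFIA2. The sources used here do not say whether the counts used strand.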
